A study of Mus musculus with 18 samples.

Results

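The members described here are 79 nuclear genes measured by RNA-seq in Thy1+ cells of mouse hearts (18 libraries). They carry symbols of oxidative phosphorylation subunits, though not each is an established subunit of the complex its symbol names. They are the protein coding genes whose symbol begins with Nduf followed by a, b, c, s or v and a digit, is Sdha, Sdhb, Sdhc or Sdhd, or begins with Uqcr, Cox and a digit from 4 to 8, or Atp5, and whose mean over the 18 libraries was at least 1 CPM (counts scaled to a common library total). Of 84 protein coding genes with such symbols among 53342 gene identifiers, 79 reached the minimum: 37 of complex I, 4 of complex II, 8 of complex III, 15 of complex IV and 15 of complex V. All 79 also passed the filter on low counts that left 15762 genes for testing. The members were thus chosen by their symbol and selected on 1 measured value, the mean CPM over all libraries, so neither strain nor treatment entered the choice, but the group was proposed with earlier results of these data known.

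Oxidative phosphorylation takes place in the inner mitochondrial membrane. Complex I (NADH dehydrogenase, the Nduf genes) and complex II (succinate dehydrogenase, the Sdh genes, which also works in the tricarboxylic acid cycle) pass electrons to ubiquinone, complex III (the Uqcr genes) passes them to cytochrome c, and complex IV (cytochrome c oxidase, the Cox genes) to oxygen, while complex V (ATP synthase, the Atp5 genes) uses the resulting proton gradient to make ATP. Most subunits are encoded in the nucleus and are made together with a smaller set encoded by the mitochondrial genome. The deposited counts hold no genes of the mitochondrial genome, so their transcripts are in no library total and were not analysed here. Fibroblasts, which Thy1 is used to sort, carry far fewer mitochondria than the cardiomyocytes around them.

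Hearts were from mice of 3 strains, C57BL/6, C3H/HeJ and KK/HlJ, with implanted pumps that released saline (sham) or isoproterenol (ISO, a beta-adrenergic agonist), and the ISO groups end at day 14 or at day 21. No day is given for sham, so the sham libraries of a strain served both days, and every pair of comparisons that uses them shares those libraries. Strain and condition make 9 groups with 2 libraries in each. Whether the 2 are separate animals, pools or repeats is not stated, so p-values measure only how far these libraries differ, which could be technical. HE, which follows Thy1+ in the sample labels, is not spelled out there, and neither age nor sex is given.

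Promoters of members from all 5 complexes held short motifs of the nuclear respiratory factor NRF1 and of ETS factors such as GABPA. Motifs of YY1 were found only in members of complexes I and V. Those of the estrogen-related receptors were found only in members of complexes I, II and V. All of these factors are known regulators of these genes. The RefSeq promoter table (GRCm38.p6, 250 bases before to 50 after a gene's start) held 62 of the 79 members. Among these 62, 10 held the NRF1 letters GCATGCG on either strand, or 16.1%, against 4.96% of 17492 protein coding genes in the table. The ETS letters CCGGAAG were in 16, or 25.8%, against 12.9%, the YY1 letters AAGATGG in 9, or 14.5%, against 7.18%, and the letters AAGGTCA of the estrogen-related receptors in 8, or 12.9%, against 4.73%. In all, 32 of the 62 held at least 1 of the 4 motifs, and no comparison of these shares was tested. A match describes letters in a window and is neither a bound site nor a cause.

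The promoter with the most kinds of motif in each complex is printed here, and ties were settled by the higher mean level. Capitals mark the NRF1, ETS and YY1 letters on either strand, and 2 overlapping NRF1 matches on opposite strands form the 8-letter runs in Uqcr11, Cox6a1 and Atp5j. Ndufs8 (complex I, matrix arm) lies at chr19:3912725-3913024 on the minus strand, Sdhb (iron-sulfur subunit of complex II) at chr4:140961021-140961320 on the plus strand, Uqcr11 (small subunit of complex III) at chr10:80406772-80407071 on the minus strand, Cox6a1 (the widely expressed COX6A isoform) at chr5:115348909-115349208 on the minus strand, and Atp5j (peripheral stalk of ATP synthase) at chr16:84834927-84835226 on the minus strand.
Ndufs8: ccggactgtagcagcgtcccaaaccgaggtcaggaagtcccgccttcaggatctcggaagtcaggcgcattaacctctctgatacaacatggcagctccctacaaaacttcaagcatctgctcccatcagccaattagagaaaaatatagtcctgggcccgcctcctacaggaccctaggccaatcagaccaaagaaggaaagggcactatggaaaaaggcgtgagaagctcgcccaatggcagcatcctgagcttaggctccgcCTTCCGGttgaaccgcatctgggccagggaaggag
Sdhb: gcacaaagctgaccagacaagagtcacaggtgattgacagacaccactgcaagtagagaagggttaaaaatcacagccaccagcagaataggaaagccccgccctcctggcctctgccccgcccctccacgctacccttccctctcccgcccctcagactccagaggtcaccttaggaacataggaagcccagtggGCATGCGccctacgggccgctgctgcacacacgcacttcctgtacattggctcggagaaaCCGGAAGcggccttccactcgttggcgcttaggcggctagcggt
Uqcr11: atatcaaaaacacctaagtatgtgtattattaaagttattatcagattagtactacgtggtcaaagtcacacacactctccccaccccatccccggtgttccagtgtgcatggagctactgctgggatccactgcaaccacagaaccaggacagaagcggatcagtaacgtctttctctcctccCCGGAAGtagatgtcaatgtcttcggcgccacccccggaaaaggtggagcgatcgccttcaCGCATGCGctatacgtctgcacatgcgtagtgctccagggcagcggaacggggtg
Cox6a1: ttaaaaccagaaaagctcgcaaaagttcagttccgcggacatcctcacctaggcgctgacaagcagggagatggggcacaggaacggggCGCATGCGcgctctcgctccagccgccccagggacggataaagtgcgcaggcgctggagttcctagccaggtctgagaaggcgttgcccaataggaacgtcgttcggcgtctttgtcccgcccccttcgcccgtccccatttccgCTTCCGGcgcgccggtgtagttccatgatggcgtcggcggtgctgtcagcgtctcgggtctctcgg
Atp5j: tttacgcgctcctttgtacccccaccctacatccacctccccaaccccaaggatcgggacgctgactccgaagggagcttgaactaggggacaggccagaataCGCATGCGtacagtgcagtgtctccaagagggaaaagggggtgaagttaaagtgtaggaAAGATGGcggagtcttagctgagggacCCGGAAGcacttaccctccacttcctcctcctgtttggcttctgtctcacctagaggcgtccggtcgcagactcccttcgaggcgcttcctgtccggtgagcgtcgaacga

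Library totals ran from 7230741 to 26280685 counts. The sorted cells expressed fibroblast genes in every library: Pdgfra, a receptor of fibroblasts, lay between 262 and 1037 CPM (scaled by edgeR's effective library size, as are all levels from here on), and Thy1 between 146 and 484. Markers of other cells were present too. Ptprc, the pan-leukocyte surface protein, had 0 counts in 12 libraries, Pecam1 of endothelium ran from 10.4 to 163 CPM, and Myh6, the cardiomyocyte myosin, from 0 to 29.3. Rgs5, which marks pericytes, ran from 159 to 1951 CPM. Of all libraries, 4 correlated least with the others: C3H/HeJ sham replicate 1 and replicate 1 of KK/HlJ sham, ISO day 14 and ISO day 21, with median correlations of 0.873, 0.875, 0.847 and 0.88.

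Levels differed widely between subunits. Per kb of transcript, mean CPM was highest for Cox4i1, the standard isoform of the regulatory COX4 subunit, at 969 CPM per kb, followed by Atp5e (epsilon subunit of the ATP synthase stalk) at 642, Atp5b (its catalytic beta subunit) at 528 and Uqcrh (the hinge protein of complex III) at 470. In complex I the top 2 were Ndufa4 at 273 and Ndufa6 at 262 CPM per kb. Ndufa4, counted here under complex I by its symbol, is now known to belong to cytochrome c oxidase. Complex II had Sdhb at 153, Sdhc (a membrane anchor) at 70.1, Sdhd (the other anchor) at 65.6 and Sdha (the flavoprotein) at 58.6 CPM per kb. The median over members was 113 CPM per kb in complex I, 67.8 in complex II, 193 in complex III, 105 in complex IV and 236 in complex V. The lowest per kb were Ndufs5 at 11 in complex I, Uqcrb at 50.6 in complex III, Cox6a2 at 4.16 in complex IV and Atp5l at 2.87 in complex V.

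Within the paralogue pairs the widely expressed isoform lay above the muscle or testis isoform in every case. Cox6a1 averaged 356 CPM per kb and its heart and skeletal muscle counterpart Cox6a2 4.16. Cox6b1 averaged 385 and Cox6b2, the testis isoform, 8.51. Cox8a averaged 197 and the muscle isoform Cox8b 13.5, and Cox7a2 averaged 226 beside 83.2 for Cox7a2l, which links complexes into supercomplexes, and 16.5 for the muscle isoform Cox7a1. Cox4i2, the COX4 isoform found in lung and pericytes, stood at 102 CPM per kb, and Ndufa4l2, a hypoxia-induced relative of Ndufa4 that is abundant in pericytes, at 207. Of the ATP synthase c-ring genes, Atp5g3 averaged 265 CPM per kb, while Atp5g1 (0.913 CPM) and Atp5g2 (0.232 CPM) lay below the minimum, as did Cox7c (0.481 CPM), Cox8c (0.383 CPM) and Cox7b2 (0 CPM). Just inside the minimum were Atp5l at 1.61, Cox6a2 at 2.81 and Cox6b2 at 3.63 CPM scaled by total counts.

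Near-identical copies bear on some of these levels. Of the 50-base stretches in its transcripts, the length of a read, Atp5l shared 68.5% with genes elsewhere, Atp5g2 87.4%, Uqcrb 43.2%, Atp5h 38.8%, Ndufb4 37% and Ndufs3 35.8%, so reads of these genes could be split or dropped and their levels are uncertain. The same holds for Cox7c and Atp5g1, which shared 23% and 11.1%, so their place below the minimum is uncertain too. In total 10 members shared at least 20% of their stretches and 47 shared none. Exons of 18 members overlap those of a gene on the opposite strand, among them Ndufa4l2 with Shmt2, Cox4i1 with Emc8 and Atp5j with Gabpa. The sequence was stranded, but the strand setting of the counting is not given in the sources used here. Whether reads of such pairs were kept apart is thus not known. Counts of 3 or fewer occurred in at least 1 library for 7 members, namely Atp5l, Cox6a2, Cox6b2, Cox7a1, Cox8b, Atp5s and Ndufs5; the fitted fold changes of such genes depend on the prior count of the fit and are no measure of size. A count of 0 leaves room for up to 3 counts, which is 0.389 CPM in the shallowest library and 0.115 in a deep one.

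Members varied together from library to library, which is given as a description with no test. Each member's log2(CPM + 0.5) was centred on its own mean over the 18 libraries, and the median of the 79 was taken in each. In C57BL/6 the median was -0.01 and 0.07 in sham, -0.39 and -0.17 at ISO day 14, and 0.34 and 0.57 at day 21. C3H/HeJ gave 0.57 and 0.21 in sham, 0.03 and -0.25 at day 14, then -0.27 and -0.56 at day 21. KK/HlJ gave 0.79 and -0.18 in sham, 0.08 and -0.14 at day 14, then -0.07 and -0.45 at day 21.

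Thus both day 21 libraries lay above both sham libraries in C57BL/6 and below both in C3H/HeJ, while the KK/HlJ groups of sham and day 21 overlapped. The 2 KK/HlJ sham libraries stood further apart than the pair of any other group, and the replicate SD of this median pooled over the 9 groups was 0.29. In summed level, the 79 members took 10290 ± 75.6 CPM (SD, n = 2) in C57BL/6 sham, 8709 ± 1099 at day 14 and 13160 ± 879 at day 21. The sums were 13386 ± 2154, 9413 ± 1072 and 7918 ± 1492 CPM in the same order for C3H/HeJ. For KK/HlJ they were 12880 ± 5416, 10433 ± 2262 and 8797 ± 1751 CPM. In cells pooled by sorting, fewer cells of a type and less RNA per cell cannot be told apart.

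**Figure D1:**
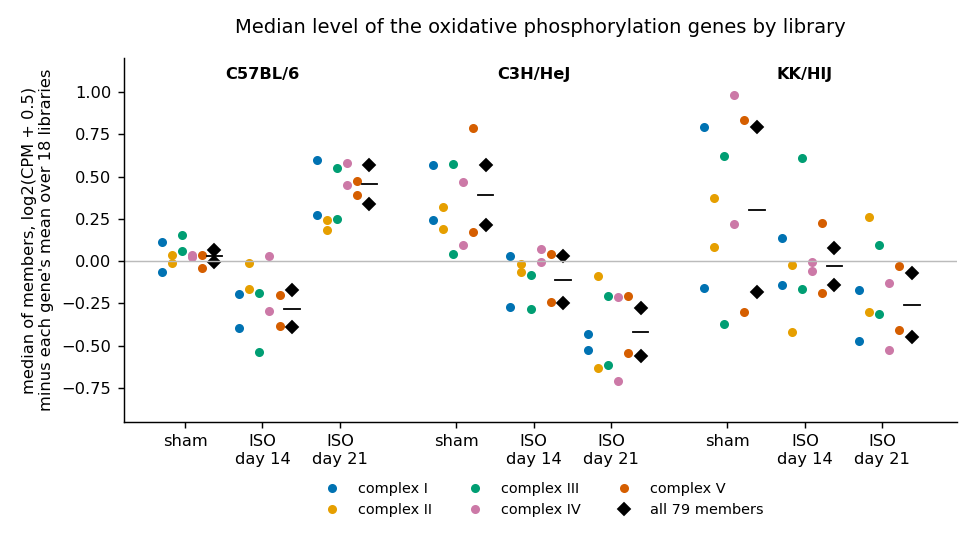
The median of all 79 members (diamonds, with a bar at the mean of the 2 libraries) and of the members of each complex (coloured points) in every library, on the y axis as log2(CPM + 0.5) minus each gene's own mean over the 18 libraries, by strain and condition. C57BL/6 day 21 lies at 0.34 and 0.57 while C3H/HeJ day 21 lies at -0.27 and -0.56, and the 2 KK/HlJ sham libraries lie at 0.79 and -0.18.

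Across the 18 libraries the median correlation of a member with the median of the other members was 0.784, 46 members exceeded 0.7 and 8 lay under 0.3. Points in these correlations share each library's depth and scaling. Highest were Cox4i1, Cox6a1 and Uqcrh at 0.94 each. Sdha at -0.66 and Ndufs1 at -0.52, the large iron-sulfur subunit of complex I, went the other way, and Cox6a2 (-0.08), Atp5a1 (0.14, the alpha subunit of ATP synthase), Cox7a1 (0.19), Atp5l (0.25), Uqcrc2 (0.26) and Atp5j (0.29) followed it weakly. Sdha, Ndufs1 and Atp5a1 have 3 of the longest member transcripts, with lengths of 2900, 2625.5 and 2572.5 nt, against a median of 742 nt over the 79. Sdha lay at 151 and 179 CPM in C57BL/6 sham, 185 and 204 at day 14, then 145 and 156 at day 21, and at 84.3 and 226 CPM in C3H/HeJ sham against 229 and 197 at day 21. In C3H/HeJ the sham libraries thus overlapped those of day 21.

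The comparison of ISO with sham asked how members responded to the drug when the 3 strains are averaged. At day 14, 77 of 79 members lay below sham and their median log2 fold change was -0.37, while the median over all 15762 genes was 0.02 and 48.4% of them lay below 0. No member was called at an adjusted p under 0.05 by edgeR's quasi-likelihood test, where 0.0381% of all genes were. DESeq2 called 0 as well. Shares of all genes called are given for the main edgeR fit only, so calls of members under any alternative are no result particular to them. A fit that leaves out 1 library also leaves its group with 1. Leaving out 1 library gave 1 or 2 calls, all lower, in 5 fits: Cox4i2 without C57BL/6 day 14 replicate 2 or C3H/HeJ sham replicate 1, Atp5e without KK/HlJ day 14 replicate 1, Cox4i2 and Cox6c without KK/HlJ day 14 replicate 2, and Cox4i2 and Atp5k without KK/HlJ sham replicate 2. The median was -0.18 when KK/HlJ sham replicate 1 was left out. At an unadjusted p under 0.05, 15 members were lower and 0 higher, against 2.39% and 3.12% of all genes. The medians of complexes I to V were -0.42, -0.25, -0.33, -0.36 and -0.36. All 37 members of complex I, all 8 of complex III and all 15 of complex V lay below 0. In complex II 3 of 4 did, and in complex IV 14 of 15.

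Of the 15 at day 14, 10 belonged to complex I, 2 to complex IV, 2 to complex V and 1 to complex II. Apart from genes with counts near 0, the lowest fold change was that of Cox4i2, -1.01 ± 0.29 (SE) on the log2 scale (edgeR adjusted p = 0.41), and the highest were Atp5a1 at -0.01 ± 0.17, Cox7b (a small complex IV subunit) at 0.04 ± 0.22 and Sdha at 0.09 ± 0.23. Ndufb8, an accessory subunit of the membrane arm, differed by -0.65 ± 0.21, Ndufa4l2 by -0.66 ± 0.21, Ndufc1, another membrane arm subunit, by -0.86 ± 0.30 and Atp5k, the e subunit of ATP synthase, by -0.81 ± 0.28. Both ISO libraries lay below both sham libraries in all 3 strains for 2 members, Cox8a and Atp5c1 (the gamma subunit that turns inside ATP synthase), and for 0.711% of all genes, and above them for 0 members and 0.692% of all genes. Atp5c1 stood at 258 and 256 CPM in C57BL/6 sham against 204 and 215 at day 14, at 479 and 271 in C3H/HeJ against 269 and 249, and at 305 and 263 in KK/HlJ against 259 and 229.

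At day 21 the average over strains had 74 of 79 members below sham, with a median of -0.33 against 0.03 over all genes, of which 47.6% lay below 0. Again 0 members were called by edgeR, where 0.0444% of all genes were, and 15 were lower and 0 higher at an unadjusted p under 0.05, against 2.16% and 2.94% of all genes. When 1 library was left out, the median ran from -0.47 without KK/HlJ sham replicate 2 to -0.15 without KK/HlJ sham replicate 1. Complex medians were -0.38, -0.11, -0.30, -0.39 and -0.25 from I to V. Of the 15, 11 were of complex I, 2 of complex IV (Cox4i2 and Cox8a) and 2 of complex V (Atp5d, the delta subunit of the central stalk, and Atp5k). Ndufa2, an accessory subunit of the matrix arm, lay at -0.86 ± 0.26 and Sdha at 0.20 ± 0.23. The strains had medians of opposite sign at this day, given below by strain.

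Cox4i2 had the smallest p of all members in the mean over strains at either day. Its levels were 155 and 100 CPM in C57BL/6 sham, 27.4 and 123 at day 14, then 48.4 and 53.4 at day 21. In C3H/HeJ they were 88.4 and 126 in sham, 41.4 and 47.6 at day 14, then 24.2 and 23.7 at day 21. In KK/HlJ they were 136 and 90.9 in sham, 59.1 and 55.1 at day 14, then 90.7 and 54.4 at day 21. At day 21 both ISO libraries lay below both sham libraries in each strain, which held for this 1 member and for 0.45% of all genes, although in KK/HlJ the gap between 90.7 and 90.9 CPM was smaller than the spread. Averaged over strains at day 21 the log2 fold change was -1.38 ± 0.29, with an unadjusted p of 9.2e-05 and an adjusted p of 0.16 in edgeR. DESeq2 called it lower (-1.38, adjusted p = 0.007), its only member called in this comparison, and so did edgeR without the filter on low counts (adjusted p = 0.00082) and without the 4 least correlated libraries (3.64e-06), a fit in which C3H/HeJ sham and all 3 KK/HlJ groups hold 1 library each, assumed to vary like the other groups. Over 12 fits that each left out 1 library, its fold change ran from -1.52 to -1.26. Each of these fits leaves 1 group with 1 library, so only the size is given. Other settings with all 18 libraries or both libraries of each group compared left Cox4i2 uncalled. Its edgeR adjusted p was 0.147 with a replicate block, 0.235 with an offset for transcript length and 0.0799 in a fit of the groups compared alone.

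Genes of pericytes and smooth muscle moved with Cox4i2. The summed level of 17 such marker genes was 8409 and 4862 CPM in C57BL/6 sham, 2266 and 6421 at day 14, then 3271 and 1770 at day 21, and ran from 1770 to 8409 CPM over all libraries, with none of the 17 at 3 counts or fewer throughout. In C3H/HeJ the sums were 2534 and 4586 CPM for sham against 2274 and 2693 at day 21, and in KK/HlJ 2572 and 3714 against 3448 and 3578. The lower C57BL/6 day 14 library of Cox4i2 was also the lower one for these markers. Over 18 libraries the correlation of log2 levels was r = 0.675 and rho = 0.686. It was r = 0.542 without C57BL/6 sham replicate 1 and day 14 replicate 2, the 2 libraries farthest from the median. No p is given, since the relation was chosen with the levels known. Within strains it was 0.883 for C57BL/6, 0.696 for C3H/HeJ and -0.437 for KK/HlJ, 6 libraries each, so the relation did not hold in KK/HlJ. The part of these cells in the difference of Cox4i2 was not tested.

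Ndufa4l2 had levels of 343 and 223 CPM in C57BL/6 sham, 122 and 224 at day 14, then 194 and 154 at day 21. In C3H/HeJ they were 256 and 259 in sham, 155 and 158 at day 14, then 125 and 134 at day 21. KK/HlJ had 252 and 187 in sham, 170 and 133 at day 14, then 245 and 139 at day 21. Only in C3H/HeJ did both days lie clear of sham. The correlation of Ndufa4l2 with the same marker sum was r = 0.655 and rho = 0.552. It was r = 0.478 without the same 2 libraries, and 0.907, 0.634 and -0.223 within C57BL/6, C3H/HeJ and KK/HlJ. These relations, and 3 of muscle isoforms with cardiomyocyte markers, were chosen with the levels known, so no p is given for them. Cox6a2 correlated with a sum of 21 cardiomyocyte genes at r = 0.518 and rho = 0.442. Its r fell to 0.261 without C3H/HeJ day 21 replicate 1 and C57BL/6 sham replicate 1, and so rests on those 2 libraries. For Cox7a1 and Cox8b r was 0.093 and 0.248.

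**Figure D2:**
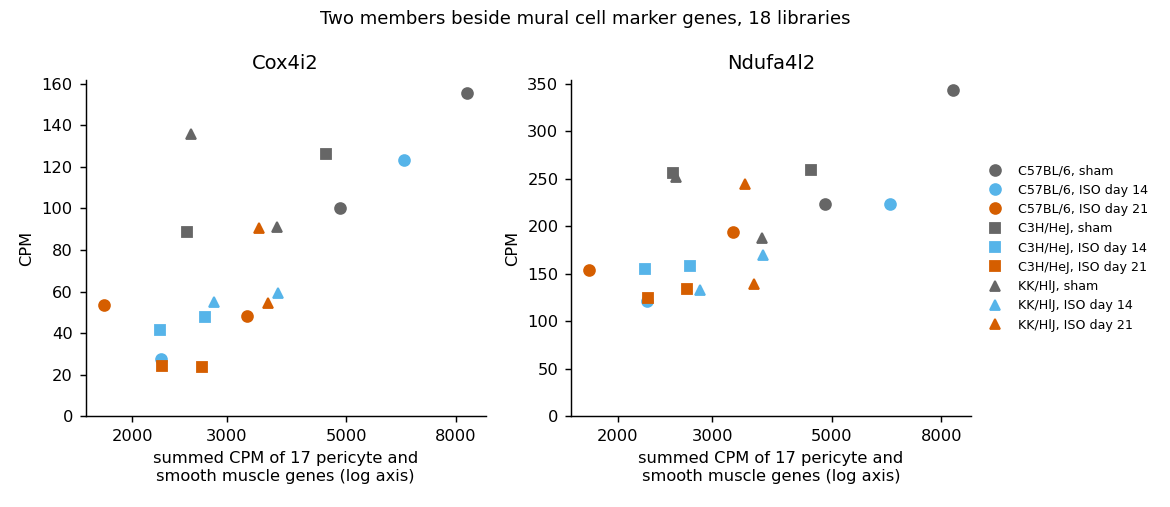
CPM of Cox4i2 (left) and Ndufa4l2 (right) against the summed CPM of 17 pericyte and smooth muscle genes on a log axis, 1 point per library, with shape for strain and colour for condition. C57BL/6 sham replicate 1 has the highest values of all 3 measures (155, 343 and 8409 CPM), and the 2 C3H/HeJ day 21 libraries lie lowest for Cox4i2 at 24.2 and 23.7 CPM.

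Within strains the day 21 responses had opposite signs. In C57BL/6 the median log2 fold change of members was -0.26 at day 14, with 66 of 79 below sham, and 0.45 at day 21, with 70 of 79 above it. The corresponding medians of all genes were -0.03 and 0.00. The day 14 median was -0.42 without C57BL/6 day 14 replicate 2, and the day 21 median was 0.25 without C57BL/6 day 21 replicate 2. No member was called at either day by edgeR or DESeq2, and 0% of all genes were called at either day by edgeR. At an unadjusted p under 0.05, 1 member was lower and 0 higher at day 14 (0.787% and 0.311% of all genes), and 4 were higher and 1 lower at day 21 (0.419% and 1.65%). The 4 were Ndufb9 and Ndufc1 of complex I, Uqcrh and Atp5h (a peripheral stalk subunit), and the 1 was Cox4i2, while the 1 at day 14 was Atp5l, which had 0 counts in both day 14 libraries. Both day 21 libraries lay above both sham libraries for 51 members, where 16.3% of all genes did, and below them for 4, where 20.7% did. At day 14 37 members lay below without overlap and 3 above, where 19.1% and 12% of all genes did.

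Uqcrh illustrates this strain. Its C57BL/6 levels were 200 and 227 CPM in sham, 146 and 193 at day 14, then 348 and 373 at day 21, with a day 21 difference of 0.76 ± 0.35. In C3H/HeJ it had 328 and 218 CPM in sham, 174 and 178 at day 14, then 151 and 145 at day 21. KK/HlJ gave 362 and 188 CPM in sham, 261 and 187 at day 14, then 199 and 134 at day 21. Day 21 thus held the strain's highest pair in C57BL/6 and the lowest in C3H/HeJ, and the KK/HlJ groups overlapped.

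In C3H/HeJ the median was -0.55 at day 14 (69 of 79 below sham) and -0.88 at day 21 (74 of 79), against 0.03 and 0.01 over all genes. Without C3H/HeJ sham replicate 1 these were -0.32 and -0.60. At day 14 0 members were called by edgeR or DESeq2, where edgeR called 0.0127% of all genes, and 5 were lower and 0 higher at an unadjusted p under 0.05 (0.837% and 2.23% of all genes). At day 21 0 were called by edgeR, where 0% of all genes were, 1 (Cox4i2, -2.17, adjusted p = 0.021) was called lower by DESeq2, and 35 were lower and 0 higher at an unadjusted p under 0.05, where 2.46% and 3.32% of all genes were. These were 16 of complex I, 2 of complex II, 3 of complex III, 7 of complex IV and 7 of complex V. Without overlap of libraries, 65 members lay below sham and 1 above at day 21 (16.6% and 18.5% of all genes), and 49 below and 6 above at day 14 (15% and 19%). Complex medians at day 21 were -0.90, -0.50, -0.91, -0.85 and -0.79 from I to V.

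Members of complexes I, II, IV and V illustrate the C3H/HeJ pattern here, as Uqcrh of complex III did above. In complex II 3 of 4 members lay below sham at day 21, while Sdha lay above it at 0.46 ± 0.41. Ndufa7, an accessory subunit, was at 152 and 116 CPM in sham, 92.1 and 83.1 at day 14, then 50.2 and 60.7 at day 21 (-1.27 ± 0.38). Sdhb was at 306 and 215 in sham, 174 and 134 at day 14, then 145 and 110 at day 21. Cox4i1 was at 1394 and 670 in sham, 682 and 485 at day 14, then 597 and 361 at day 21, and Atp5e at 475 and 256 in sham, 213 and 162 at day 14, then 148 and 90.7 at day 21. Sham and ISO overlapped only for Cox4i1 at day 14. Atp5b, the long and abundant beta subunit, stood at 992 and 1419 CPM in sham, 1032 and 905 at day 14, then 1077 and 803 at day 21, where the groups overlapped.

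C3H/HeJ day 21 replicate 1 had the highest marker sums of 3 other cell types, with 3241 CPM for 20 endothelial genes, 1028 for 21 cardiomyocyte genes and 259 for 18 macrophage genes (the last list includes genes at or near 0 elsewhere). The macrophage genes Itgam and Ccr2 were at 3 counts or fewer in every library. The other day 21 library, at 1114, 499 and 19 CPM, had the lower members' median of the 2 (-0.56 against -0.27). Leaving out either day 21 library left the C3H/HeJ day 21 call count at 0, while without C3H/HeJ sham replicate 2 edgeR called 4 lower (Cox4i2, Ndufa3, Ndufb6 and Ndufc1), and without C3H/HeJ sham replicate 1 it called Cox4i2 alone. The part of these cells in the members' levels was not tested.

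Markers of Schwann cells and glia lay lower with ISO as well. The summed level of 15 such genes was 439 and 305 CPM in C57BL/6 sham, 184 and 372 at day 14, then 262 and 222 at day 21. In C3H/HeJ it was 359 and 351 CPM in sham, 180.5 and 202 at day 14, then 148 and 193 at day 21, and in KK/HlJ it was 313 and 322, 240.6 and 241, then 239.9 and 219. Both ISO libraries thus lay below both sham libraries at each day in C3H/HeJ and KK/HlJ, while in C57BL/6 they did so at day 21 and overlapped sham at day 14. In the mean over strains 12 and 13 of the 15 lay below 0 at day 14 and 21, with medians of -0.42 and -0.54 and 0 called by edgeR. None of the 15 was at 3 counts or fewer throughout. The part of these cells in the members' differences was not tested.

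In KK/HlJ the median was -0.33 at day 14 (66 of 79 below sham) and -0.66 at day 21 (72 of 79), against 0.00 and 0.04 over all genes. At day 14 0 members were called by edgeR or DESeq2, where 0% of all genes were called by edgeR, and 9 were lower and 0 higher at an unadjusted p under 0.05 (1.7% and 3.04% of all genes). At day 21 0 were called by either tool, where 0.019% of all genes were by edgeR, and 20 were lower and 0 higher at an unadjusted p under 0.05 (2.16% and 3.07%), 13 of complex I, 4 of complex IV and 3 of complex V. Libraries lay below sham without overlap for 18 members at day 14 and 29 at day 21 (10.1% and 11.1% of all genes), and above it for 2 and 1 (12.8% and 14.4%).

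Much of the KK/HlJ difference rests on sham replicate 1. Without it the median difference at day 21 was -0.10 and at day 14 0.10, and without sham replicate 2 it was -1.09 and -0.74. Each of these fits leaves a group with 1 library, and the share of all genes it called is not given. Calls at day 21 numbered 12, all lower, without sham replicate 2, and 0 without sham replicate 1, and 2 (Cox6c and Ndufa5) without day 21 replicate 2. At day 14 there were 4 lower without sham replicate 2 and 3 without day 14 replicate 2. Ndufb9, for instance, an accessory subunit of the membrane arm, was at 170 and 116 CPM in sham, 65.7 and 70.3 at day 14, then 54.6 and 59.3 at day 21, and lay below sham without overlap, while Cox4i1 was at 1479 and 426 CPM in sham, 1041 and 524 at day 14, then 649 and 396 at day 21, so that its sham libraries enclosed 3 of the 4 ISO values.

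**Figure D3:**
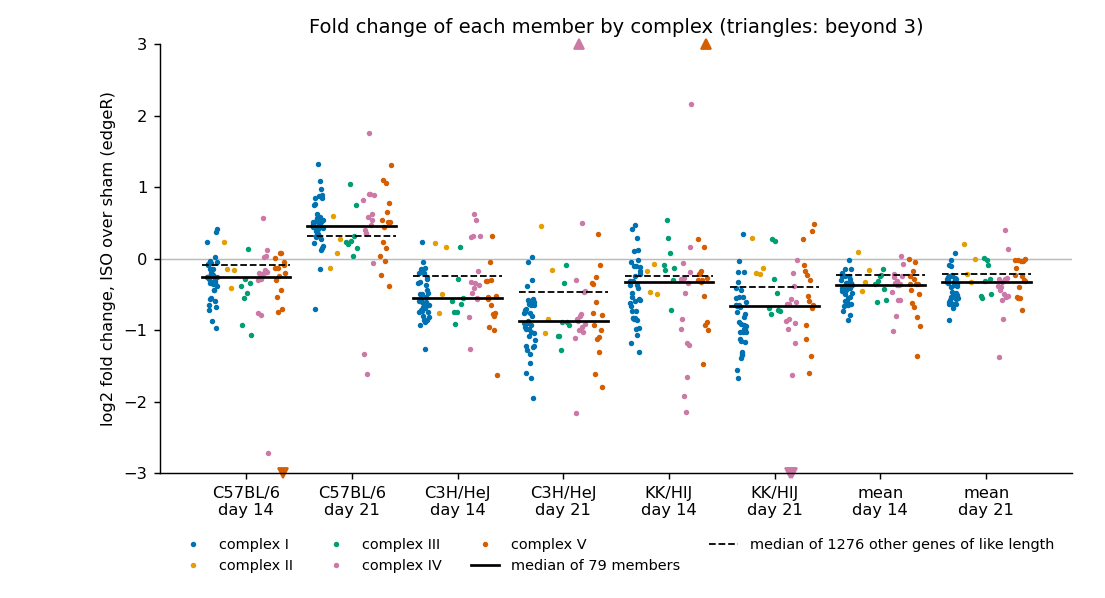
The log2 fold change of ISO over sham (y axis) for each of the 79 members, coloured by complex, within each strain and day and averaged over the 3 strains; solid bars are medians of members, dashed bars medians of 1276 other protein coding genes with transcripts of 559 to 1198.5 nt, and triangles at the edge stand for members beyond 3. Members lie above 0 at C57BL/6 day 21 (median 0.45) and below it elsewhere, lowest at C3H/HeJ day 21 (median -0.88).

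How the response differed between strains was tested per gene as a difference of fold changes. At day 21 the median of C3H/HeJ minus C57BL/6 was -1.29, against 0.14 over all genes, with 74 of 79 below 0. None was called by edgeR, where 0% of all genes were (smallest adjusted p of a member 0.798), 38 were lower and 0 higher at an unadjusted p under 0.05 (2.53% and 3.64% of all genes), and DESeq2 called 1 lower, Atp5e (-2.79, adjusted p = 0.048). By complex the medians were -1.45, -0.67, -1.21, -1.22 and -1.29 from I to V. Ndufc1 differed by -2.76 ± 0.74, Ndufs8 by -2.06 ± 0.61, Sdhb by -1.63 ± 0.49 and Uqcrh by -1.64 ± 0.50. The median over members was -1.56 without C3H/HeJ sham replicate 2 and -1.04 without C3H/HeJ sham replicate 1.

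KK/HlJ minus C57BL/6 at day 21 had a median of -1.11 against 0.18 over all genes, with 71 of 79 below 0. Again 0 were called by edgeR, where 0% of all genes were (smallest adjusted p of a member 0.703), and 29 were lower and 0 higher at an unadjusted p under 0.05 (2.28% and 4.17%). DESeq2 called 1 lower, Ndufb9 (-2.28, adjusted p = 0.049). Both differences share the C57BL/6 libraries. The median of KK/HlJ minus C57BL/6 was -1.54 without KK/HlJ sham replicate 2 and -0.52 without KK/HlJ sham replicate 1. KK/HlJ and C3H/HeJ differed in their day 21 response by a median of 0.20, with 53 of 79 above 0, 0 called by either tool (0% of all genes by edgeR), and 1 higher, Cox4i2 at 1.52 ± 0.70, and 0 lower at an unadjusted p under 0.05 (1.84% and 1.55%). Its median was -0.23 when KK/HlJ sham replicate 2 was left out and 0.72 when replicate 1 was.

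At day 14 the differences between strains were smaller and mixed in sign. Medians were -0.20 for C3H/HeJ minus C57BL/6, -0.11 for KK/HlJ minus C57BL/6 and 0.24 for KK/HlJ minus C3H/HeJ, against 0.15, 0.12 and -0.03 over all genes, with 56, 46 and 29 of 79 below 0. In each, 0 members were called by edgeR (0%, 0% and 0% of all genes) and 0 by DESeq2. At an unadjusted p under 0.05 there were 0 higher and 0 lower, 1 higher and 2 lower, and 0 higher and 1 lower. For all genes these shares were 1.48% and 0.228%, 2.91% and 0.806%, and 1.74% and 1.59%. All 3 medians changed sign when 1 sham library was left out: to 0.03 without C3H/HeJ sham replicate 1, to 0.36 without KK/HlJ sham replicate 1 and to -0.12 without its replicate 2.

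Between the 2 ISO days, C57BL/6 members lay higher at day 21 than at day 14 by a median of 0.71, against 0.00 over all genes, with 74 of 79 above 0. None was called by edgeR or DESeq2, where 0% of all genes were by edgeR, and 18 were higher and 0 lower at an unadjusted p under 0.05 (1.83% and 1.61%). They comprised 8 of complex I, 1 of complex II, 3 of complex III, 1 of complex IV and 5 of complex V. Both day 21 libraries lay above both day 14 libraries for 61 members and below them for 2 (16.8% and 15.9% of all genes). Ndufa4 was at 53.8 and 85.8 CPM at day 14, then 211 and 158 at day 21 (1.40 ± 0.39), Ndufb9 at 47.9 and 72.9 against 104 and 195 (1.31 ± 0.39), and Atp5e at 66.2 and 186 against 483 and 416 (1.84 ± 0.62). Without the 4 least correlated libraries, none of which is C57BL/6, and with the 4 groups left at 1 library assumed to vary like the others, edgeR called 7 higher: Atp5e, Cox4i1, Ndufa4, Ndufb4, Ndufb9, Ndufc1 and Uqcrq.

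In the other strains the same contrast was negative, with medians of -0.32 in C3H/HeJ (72 of 79 below 0) and -0.31 in KK/HlJ (59 of 79), against 0.00 and 0.02 over all genes. In both, 0 members were called by edgeR (0% and 0% of all genes) and 0 by DESeq2. At an unadjusted p under 0.05 C3H/HeJ had 0 members in either direction (0.152% of all genes higher and 0.266% lower), and KK/HlJ had 3 lower, Cox7b, Ndufb4 and Ndufv2, and 0 higher (0.622% and 0.431%). Without overlap, 32 members were lower and 2 higher in C3H/HeJ (14.9% and 13.7% of all genes), and 22 lower and 4 higher in KK/HlJ (10.3% and 11.3%). Without KK/HlJ day 14 replicate 2 edgeR called Atp5e lower in KK/HlJ. The C3H/HeJ median was -0.17 without day 21 replicate 2, -0.52 without day 21 replicate 1 and -0.20 without day 14 replicate 1. That of KK/HlJ was -0.09 without day 14 replicate 1 and -0.19 without day 21 replicate 2.

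Averaged over sham, day 14 and day 21, the member medians lay near 0 between strains. They were -0.12 for C3H/HeJ minus C57BL/6, -0.08 for KK/HlJ minus C57BL/6 and 0.06 for KK/HlJ minus C3H/HeJ, against -0.01, -0.05 and -0.04 over all genes. No member was called by edgeR, where 0.647%, 0.273% and 0.406% of all genes were, nor by DESeq2. At an unadjusted p under 0.05, 2 members were lower and 0 higher in the first (3.24% and 5.05% of all genes), 0 in either direction in the second (2.89% and 2.91%), and 1 higher and 0 lower in the third (2.72% and 3.58%). Cox5b, a zinc-binding subunit of complex IV, and Cox4i2 were the 2 in C3H/HeJ, at -0.75 ± 0.29 and -0.70 ± 0.29, and Cox4i2 was the 1 between KK/HlJ and C3H/HeJ, at 0.68 ± 0.29. Without KK/HlJ day 14 replicate 2 edgeR called Atp5e higher in KK/HlJ than in C3H/HeJ, and the last 2 medians changed sign, to 0.02 without KK/HlJ sham replicate 2 and to -0.15 without its replicate 1. Cox5b shares 23% of its stretches with 1 other gene, and reads of all strains were aligned to a genome of C57BL/6 origin, so a strain's variants could move its counts.

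Transcript length moved with these differences. Members have short transcripts, with a median of 742 nt (quartiles 559 and 1198.5 nt) against 2576 nt for the other genes tested. In each library a slope of centred log2 level on log2 transcript length was fitted over genes that are not members. It ran from -0.249 in C3H/HeJ sham replicate 1 and -0.208 in KK/HlJ sham replicate 1, where short transcripts were relatively high, to 0.175 in C3H/HeJ day 21 replicate 2 and 0.205 in KK/HlJ day 21 replicate 2. Over the 18 libraries the members' median and this slope had r = -0.911 and rho = -0.841, and r = -0.86 without the 2 sham libraries just named, which lie farthest out. Within C57BL/6, C3H/HeJ and KK/HlJ, 6 libraries each, r was -0.913, -0.994 and -0.926, and over deviations from the group means it was -0.902. These correlations are a description of 18 libraries that share depth and scaling with both measures, and they carry no p since the members were chosen with results known. The slope is measured on other genes, so the members' own values did not enter it.

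**Figure D4:**
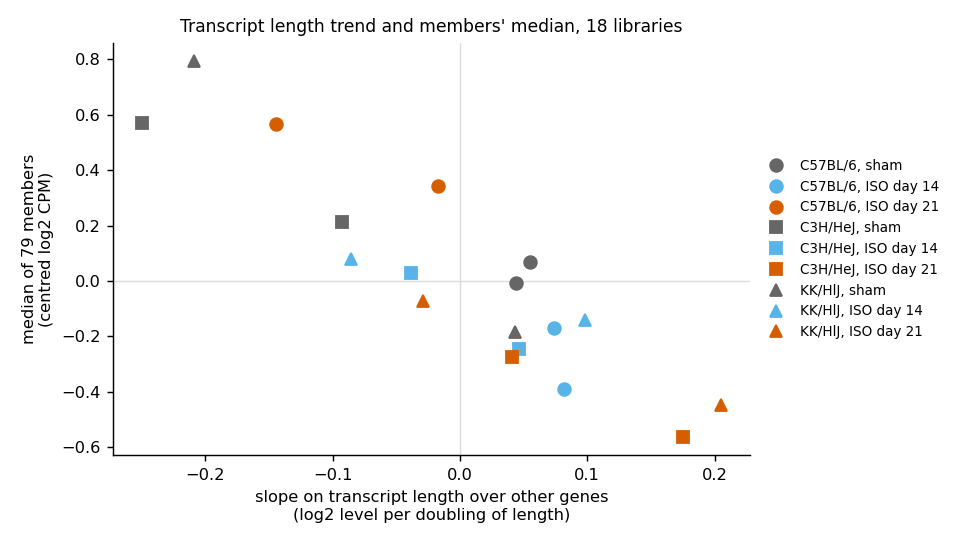
The members' median (y axis, centred log2 CPM) against the slope of level on transcript length over all other genes (x axis, log2 level per doubling of length), 1 point per library with shape for strain and colour for condition. Libraries run from C3H/HeJ and KK/HlJ sham replicate 1 at upper left (slopes -0.249 and -0.208) to C3H/HeJ and KK/HlJ day 21 replicate 2 at lower right (slopes 0.175 and 0.205).

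Other genes of like length shared much of the members' differences. Among 1276 other protein coding genes, ribosomal proteins left out, with transcripts between the members' quartiles, the median at day 21 was 0.31 for C57BL/6, -0.47 for C3H/HeJ and -0.40 for KK/HlJ, beside 0.45, -0.88 and -0.66 for the members. For the mean over strains it was -0.22 at both days, beside -0.37 and -0.33. For C3H/HeJ minus C57BL/6 and KK/HlJ minus C57BL/6 at day 21 it was -0.77 and -0.73, beside -1.29 and -1.11. The members' medians lay farther from 0 than those of like length in each of these comparisons, a difference that was not tested.

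With an offset that removes the length trend in each library before the edgeR fit, member medians at day 21 were 0.31 for C57BL/6, -0.56 for C3H/HeJ and -0.39 for KK/HlJ, and -0.25 in the mean over strains at either day, with 0 members called in any of the 20 comparisons. C3H/HeJ minus C57BL/6 then had a median of -0.91 and KK/HlJ minus C57BL/6 -0.68. Each of these medians kept its sign and lay nearer to 0 than without the offset.

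The trend was graded over length classes. At C3H/HeJ day 21, the 27 members under 600 nt had a median of -0.93, the 27 of 600 to 1000 nt -0.87, the 20 of 1000 to 2000 nt -0.74 and the 5 of 2000 to 4000 nt -0.34. Other genes had medians of -0.62, -0.49, -0.24 and 0.10 in these classes, and 0.54 at 4000 nt or more, where no member falls. In C57BL/6 at day 21 the order was the reverse, with 0.52, 0.48, 0.32 and 0.03 for members and 0.40, 0.32, 0.17 and -0.08 for other genes. KK/HlJ at day 21 gave -0.69, -0.87, -0.26 and 0.27 for members and -0.58, -0.43, -0.16 and 0.13 for other genes. The class of longest members holds only Ndufa10, Ndufb2, Ndufs1, Sdha and Atp5a1, and its medians rest on those 5. Whether the length trend comes from RNA quality, library preparation or the cells was not tested.

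**Figure D5:**
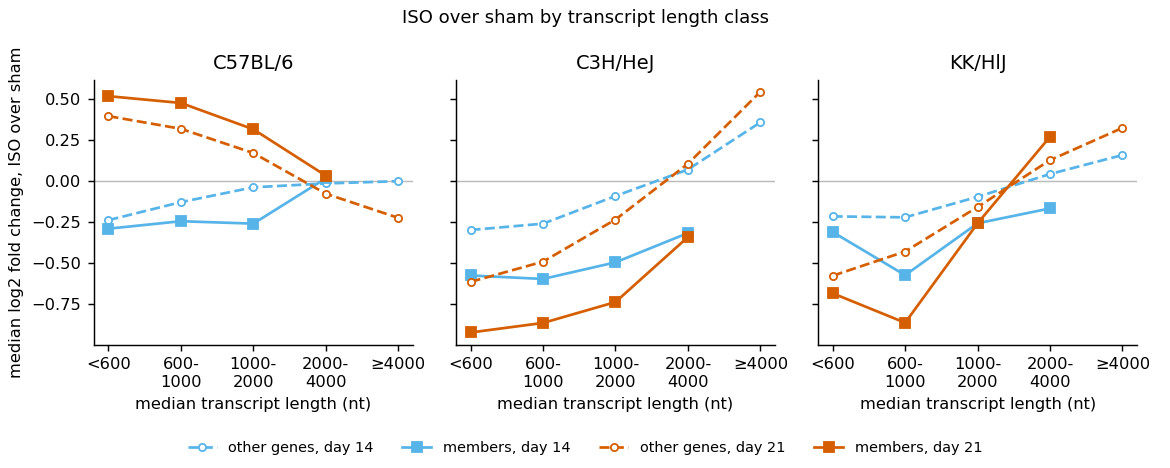
Median log2 fold change of ISO over sham (y axis) by class of median transcript length (x axis, nt) for members (squares, solid lines) and other protein coding genes without ribosomal proteins (open circles, dashed lines), at day 14 (blue) and day 21 (orange) in each strain. At day 21 short classes lie above 0 in C57BL/6 (0.52 for members under 600 nt) and below 0 in C3H/HeJ (-0.93) and KK/HlJ (-0.69), and the class of 2000 to 4000 nt holds 5 members.

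Other genes of mitochondrial energy metabolism were followed as lists. Of 12 tested subunits and carriers that are not members, such as Cyc1 of complex III, 10 lay below sham at day 14 and 11 at day 21 in the mean over strains, with medians of -0.31 and -0.28, 0 called by edgeR in either direction, and 2 and 1 lower at an unadjusted p under 0.05. Cycs, the electron carrier cytochrome c, was lowest at both days but had libraries with 0 counts, so its fitted value is no measure of size. Of 47 assembly factors, which build the complexes without staying in them, 33 and 28 lay below 0, with medians of -0.23 and -0.04 and 0 called; the copper chaperone Cox17 was lowest at -1.04 and -1.55. Among 22 regulators of mitochondrial biogenesis the medians were 0.13 and -0.14, with 8 and 15 below 0 and 0 called. The highest, Esrrg, an estrogen-related receptor, at day 14 and Ppargc1a, the coactivator PGC-1alpha, at day 21, both had libraries with 0 counts.

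The 19 genes of the tricarboxylic acid cycle (median transcript 2491.5 nt) had medians of 0.01 and -0.05, with 9 and 12 below 0 and 0 called. The 24 glycolysis genes had medians of -0.07 and -0.10, with 15 and 17 below 0 and 0 called. In C3H/HeJ at day 21 the cycle's median was -0.02 and that of glycolysis -0.27, beside -0.88 for the members. The reason for differences between the lists was not tested. Of the ribosomal proteins, 77 mitochondrial ones (median length 1226 nt) had medians of -0.28 at both days. Their medians were -0.61 at C3H/HeJ day 21, -0.63 at KK/HlJ day 21 and 0.37 at C57BL/6 day 21. For 97 cytosolic ones (833 nt, a list by symbol that takes in some ribosomal protein S6 kinase genes) the values were -0.27 and -0.30, then -0.58, -0.72 and 0.56. Of both lists 0 were called in the means over strains, with 7 mitochondrial ones lower at each day and 11 and 6 cytosolic ones lower at an unadjusted p under 0.05.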

How the data were processed

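RNA of 18 libraries of Thy1+ heart cells was read as stranded 50 nt single-end sequence, per the labels' protocols, and STAR 2.5.3a, edgeR, FastQC and mm10 are named in the submitters' processing notes. The deposited values are raw counts per gene; which program counted them, on which annotation and strand, is not given in the sources used here. Identifiers were matched to GENCODE M21 symbols (53237 of 53342, while the other 105 held 0.00159% of reads). Transcript length is the median over a gene's transcripts in the GENCODE basic set that are of the gene's own type. Where a gene had none, all its basic transcripts were used, or else all its annotated ones. Counts were fitted with edgeR 4.0.16 (quasi-likelihood test, TMM scaling, filterByExpr, 1 term per group, 9 residual degrees of freedom), with Benjamini-Hochberg adjustment over 15762 genes; DESeq2 1.42.0 served as an alternative. Groups were taken from the labels, and totals of 7230741 to 26280685 counts set the precision; the reads carry no molecular identifiers, so limits from counts cover counting error only. Correlations were computed with scipy 1.17.1 and are given without p. The fitting code was run on simulated counts with known changes and the same spread for every gene. That checks the code and not the power to call members in these libraries.

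The members, the gene lists and the tests were chosen with earlier results of these data known. Members are named when called, when highest or lowest in a comparison or in level within a complex, when in a paralogue set, or as Sdh genes; the others named, such as Uqcrh, Ndufb9 and Atp5c1 as examples, were chosen after their values were seen. Alternatives were DESeq2, RLE scaling, no filter on low counts, a replicate block, a length offset (loess span 0.3), scaling without members and ribosomal proteins, the groups compared alone, other minimum levels, longest transcripts, each library left out, and the 4 least correlated libraries left out. The length slope without ribosomal proteins was added after seeing the data.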

Additional observations from a re-analysis of the deposited data

Results flagged for a closer look

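The members' median response to ISO at day 21 had opposite signs in C57BL/6 and the other strains. In C57BL/6 both day 21 libraries lay above the mean of sham, by 0.31 and 0.54 on the log2 scale, while those of C3H/HeJ lay below it, at -0.67 and -0.95, and those of KK/HlJ at -0.38 and -0.75. The median difference of responses was -1.29 for C3H/HeJ minus C57BL/6 and -1.11 for KK/HlJ minus C57BL/6, and both share the C57BL/6 libraries. Without KK/HlJ sham replicate 1 the KK/HlJ median was -0.10 and its difference from C57BL/6 -0.52. Other genes of like transcript length had medians of the same signs, 0.31 for C57BL/6, -0.47 for C3H/HeJ and -0.40 for KK/HlJ. With the length offset the differences were -0.91 and -0.68. The difference of the medians was not tested, and edgeR's test of the difference per gene called 0 of 79 members in either.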

How the results depend on the processing

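RLE scaling, the groups compared alone and scaling without members and ribosomal proteins left the member count at 0 in all 20 comparisons. For the calls that follow, the share of all genes called in the same fit is not given. They are thus no result particular to the members. A fit that leaves out 1 library leaves its group with 1. Without the filter on low counts edgeR called 1 member in the mean at day 21, 2 in C3H/HeJ at day 21, 1 in C3H/HeJ minus C57BL/6 and 2 in KK/HlJ minus C57BL/6 at day 21, and 1 in C57BL/6 day 21 versus day 14. DESeq2 called 1 in each of the mean at day 21, C3H/HeJ at day 21, and both differences from C57BL/6 at day 21. Without the 4 least correlated libraries, where 4 groups hold 1 library each, assumed to vary like the others, 1 was called in the means at day 14 and day 21, C57BL/6 day 21, C3H/HeJ day 14 and day 21, C3H/HeJ minus C57BL/6 at day 21 and each of the 3 strain averages, and 7 in C57BL/6 day 21 versus day 14. The medians then were -0.018 and -0.24 in KK/HlJ at day 14 and 21, 0.26 and -0.67 for KK/HlJ minus C57BL/6, and -0.41 for their strain average. With the length offset the median was -0.56 in C3H/HeJ at day 21, -0.91 and -0.68 for C3H/HeJ and KK/HlJ minus C57BL/6 at day 21, and 0.38 in C57BL/6 day 21 versus day 14, and that of the KK/HlJ and C57BL/6 strain average was 0.04.

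Without the 4 libraries these named values changed sign: at day 14 in the mean Atp5l to 0.062, Atp5s to 0.12, Cox7b to -0.064 and Sdha to -0.0785, at day 21 Cox8b to -0.24 and Sdha to -0.11, Atp5s in C3H/HeJ minus C57BL/6 at day 14 to 0.20, and Atp5l in the KK/HlJ minus C57BL/6 strain average to -0.92. The cause was not tested. Atp5l, Atp5s, Cox6b2 and Cox8b have libraries at 3 counts or fewer, so their values here and below depend on the prior count and show only that the sign was not stable.

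Leaving out 1 library at a time gave 0 to 2 called members in the mean at day 14, 0 to 4 at day 21, 0 to 4 in C3H/HeJ at day 21, 0 to 9 in C3H/HeJ minus C57BL/6 at day 21, 0 to 4 and 0 to 12 in KK/HlJ at day 14 and 21, 0 to 16 in KK/HlJ minus C57BL/6 at day 21, 0 to 1 in the KK/HlJ minus C3H/HeJ strain average and 0 to 1 in KK/HlJ day 21 versus day 14. The medians ran from -0.74 to 0.10 and from -1.09 to -0.10 in KK/HlJ at day 14 and 21, from -0.48 to 0.36 and from -1.54 to -0.52 for KK/HlJ minus C57BL/6, and from -0.12 to 0.68 and from -0.23 to 0.72 for KK/HlJ minus C3H/HeJ. Named values that changed sign ran, in the mean at day 14, from -2.33 to 0.15 for Atp5l, -0.086 to 0.051 for Atp5a1, -0.18 to 0.19 for Cox7b and -0.0898 to 0.37 for Sdha, and at day 21 from -1.41 to 0.46 for Cox8b. Cox6b2 ran from -8.11 to 1.56 in C57BL/6 at day 14 and from -10.41 to 5.98 in KK/HlJ minus C57BL/6 at day 14, Atp5s from -2.98 to 0.19 in C3H/HeJ minus C57BL/6 at day 14, and Atp5l from -4.20 to 5.34 in KK/HlJ minus C57BL/6 at day 21 and from -0.50 to 2.37, -0.57 to 1.42 and -2.62 to 1.57 in the strain averages of C3H/HeJ minus C57BL/6, KK/HlJ minus C57BL/6 and KK/HlJ minus C3H/HeJ.

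Over all genes, the deviations of libraries that share a replicate number correlated at -0.23 to 0.24 over 36 pairs of groups, 11 of them above 0.1; within C57BL/6, C3H/HeJ and KK/HlJ 0, 1 and 1 of 3 pairs were above 0.1, so the numbers were not taken to pair libraries. The members' median, however, was higher in replicate 1 in all 3 groups of C3H/HeJ and of KK/HlJ and in replicate 2 in all 3 of C57BL/6. A replicate block, a term common to all 9 groups, left 0 members called in all 20 comparisons and moved Cox8b in the mean at day 21 to -0.11. Such a common term cannot take up a replicate difference whose sign differs between strains. The length slope kept r between -0.93 and -0.89 with the members' median when 1 library was left out, and was -0.889 with longest transcripts, -0.925 with a minimum of 5 CPM, -0.884 without the 4 libraries and -0.902 without ribosomal proteins.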
